A study of Gallus gallus with 12 samples.

Results

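The genes for the subunits, chaperones, activators and inhibitor of the proteasome were followed through the development of the chick chorioallantoic membrane (CAM), the vascular membrane through which the chick embryo breathes inside the egg. Members were taken by name alone, as all probe sets annotated with a symbol that starts with PSMA, PSMB, PSMC, PSMD, PSME, PSMF or PSMG. This gave 37 genes and 58 probe sets out of 13009 annotated genes and 38439 probe sets on the array. A probe set was tested when all 3 arrays of at least 1 stage reached a signal of 35. All 37 genes had a tested probe set, whereas 12 of the 58 probe sets, with signals from 0.399 to 90.1, were not tested. PSMC3IP shares the prefix but encodes a factor of meiotic recombination, so that it is described apart from the other 36 genes.

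The proteasome is the main protease of the cytosol and nucleus, and it degrades proteins that were marked with ubiquitin. Its core particle is a barrel in which outer rings of alpha subunits (PSMA genes) guard the entry and inner rings of beta subunits (PSMB genes) cut the substrate. A regulatory particle sits on the barrel end, where ATPases (PSMC genes) unfold and thread the substrate and non-ATPase subunits (PSMD genes) bind and remove the ubiquitin. Dedicated chaperones help to assemble both particles. The activators PSME3 and PSME4 are alternative caps that open the core without ATPases, and PSMF1 is known as an inhibitor of the core in the test tube. These roles are known mainly from yeast and mammals. Among its known substrates are the cyclins, whose destruction drives the cell cycle.

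CAMs were taken from untreated chick embryos at day 5 (E5), day 7 (E7), day 10 (E10) and day 14 (E14), and 3 individual CAMs per stage, each from 1 embryo, were hybridised to 12 Affymetrix chicken GeneChips. The study names the E5 tissue as the allantoic vesicle and also calls it CAM. A change of tissue and a change of stage cannot be told apart in comparisons with E5. No strain or sex was given in the labels. Signals were scaled over each array to a target of 100. The RNA came from the whole membrane, so that fewer cells of a type and less RNA per cell cannot be told apart in any value below. Levels are given as signals with the SD over n = 3 CAMs, and changes as log2 fold changes of the later over the earlier stage, with the standard error (SE) and the adjusted p of limma over all 17726 tested probe sets. "Rose" and "fell" are used for an adjusted p under 0.05. A gene is represented by its brightest tested probe set, and signals of different probe sets are not compared in level.

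Between E5 and E14 the transcripts of the proteasome fell broadly, in the core particle and in the regulatory particle alike, while the inhibitor PSMF1 rose. Of the 36 genes, 23 fell (63.9%), against 19.3% of all tested probe sets, and 1 rose, against 19.5% of all. The fall included 10 of 13 core genes and 10 of 13 genes of the regulatory particle, but 2 of 7 assembly chaperones and 1 of 2 activators. The median log2 fold change from E5 to E14 was -0.80 over the 36 genes, with single genes between -2.00 and 1.00, and 0.03 over all tested probe sets. The 36 genes were measured more tightly, with a median SE of 0.23 beside 0.33 over all tested probe sets. An equal fold change was therefore called more readily among them. At the study's further limit of a fold over 2, 11 genes fell (13.6% of all probe sets did) and 1 rose (14.8% of all). These 11 were PSMA2, PSMA3, PSMA5, PSMA7, PSMB3, PSMC1, PSMD10, PSMD12, PSMD13, PSMD14 and PSMG1. In 26 genes every E14 array lay below every E5 array, which held for 26.4% of all tested probe sets. A test for any difference among the 4 stages called 20 of the 36 genes, against 32.9% of all probe sets.

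**Figure D1:**
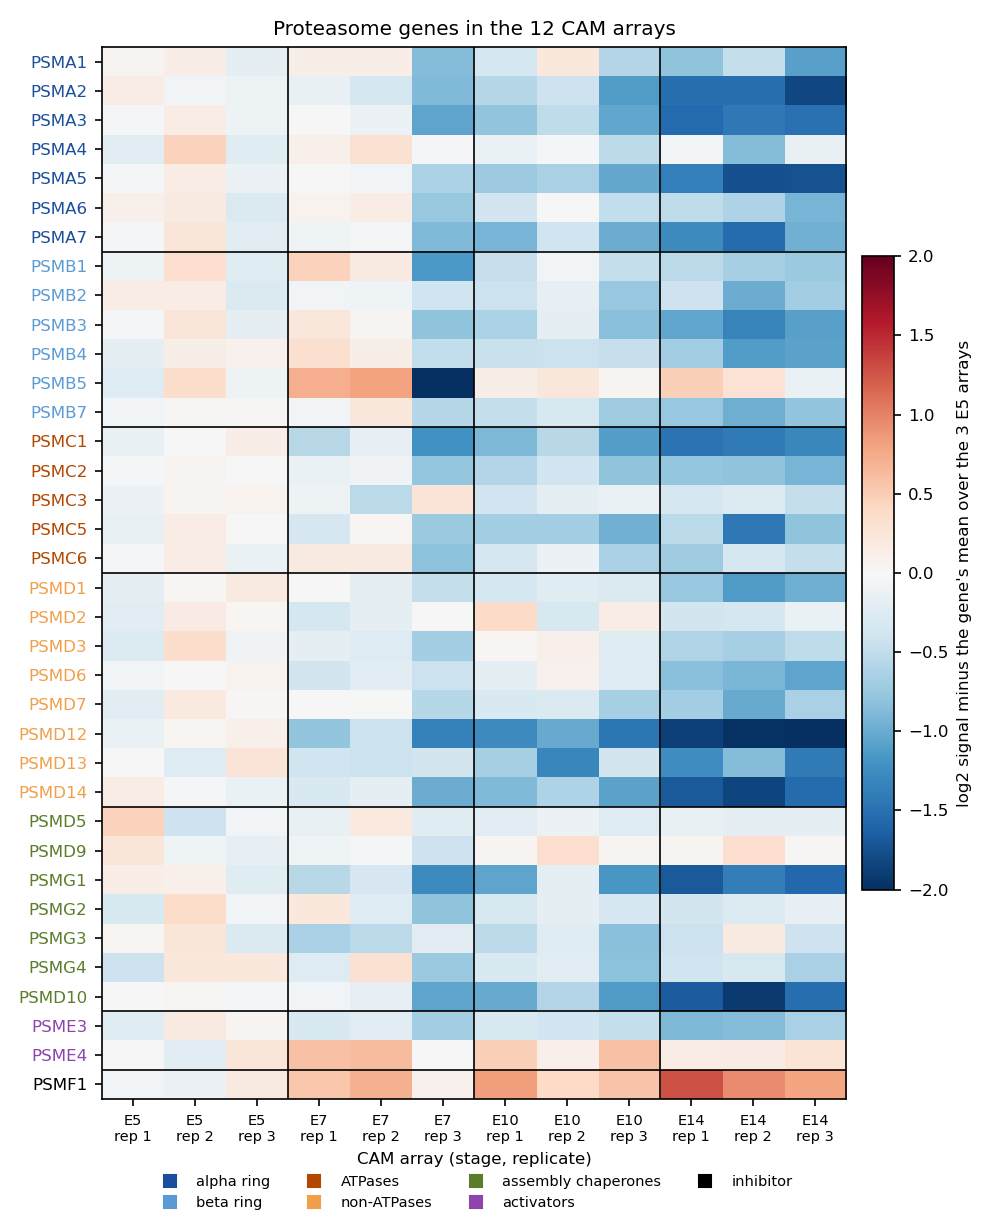
Heat map of the 36 proteasome genes (rows, coloured by class) in the 12 CAM arrays (columns, by stage and replicate). Colour gives the log2 signal minus the gene's mean over the 3 E5 arrays, with values beyond 2 in size drawn at the end of the scale. Blue deepens toward E14 in most core and regulatory rows, PSMF1 turns red, and E7 replicate 3 is bluer than the other E7 arrays in most rows.

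Step by step, the estimates were mostly below 0 but few passed the test. The mean log2 signal was lower at each later stage in 24 of 36 genes, a course shown by 16.4% of all tested probe sets. In PSMF1 alone it was higher at each later stage, and the share of all probe sets with that course was not counted. The median log2 fold change of the 36 genes was -0.23 from E5 to E7, -0.21 from E7 to E10 and -0.38 from E10 to E14, beside -0.04, 0.06 and -0.05 over all tested probe sets. The median of the first step depended on E7 replicate 3, without which the medians of the 36 genes were -0.06, -0.42 and -0.38. By class, the E5 to E7 median without this array was 0.11 for the core particle and -0.05 for the assembly chaperones. For the regulatory particle it was -0.25. Estimates over all arrays, E7 replicate 3 included, were below 0 in 33, 28 and 31 of the 36 genes. The shares of all probe sets below 0 were not counted.

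Single steps gave few calls. From E5 to E7 limma called 0 proteasome genes, against 1.07% of all probe sets higher and 0.282% lower. At an unadjusted p under 0.05 there were 5 genes, PSMC1, PSMD12, PSMD14, PSME3 and PSMG1, all with lower estimates at E7, which is a share of 13.9% beside 17.3% of all probe sets in either direction. Every E7 array lay below every E5 array in 9 genes, against 12.1% of all probe sets. From E7 to E10 again 0 genes were called, against 3.33% of all probe sets higher and 0.88% lower. At an unadjusted p under 0.05 only PSMA5 was found, beside 21.2% of all probe sets. In this step PSMA4 and PSMA5 were the 2 genes with all E10 arrays below all E7 arrays (9.77% of all probe sets). PSMD9 lay higher in all E10 arrays without passing the test (0.32, adjusted p = 0.353). The share of all probe sets in that direction was not counted, so the place of PSMD9 among them is not known.

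From E10 to E14 the alpha ring genes PSMA2 and PSMA5 and the lid gene PSMD6 fell, 3 of 36 genes against 1.9% of all probe sets, and 0 genes rose, against 1.35% of all. At an unadjusted p under 0.05, 0 genes were higher at E14, whereas 7.99% of all probe sets were. None of the 3 passed a fold over 2, a limit that 1.48% of all probe sets passed as lower and 1.22% as higher. Signals of every E14 array were below those of every E10 array in 17 genes, against 15.2% of all probe sets. The count of 3 depended on single arrays. It was 0 without E10 replicate 1, E10 replicate 2 or E14 replicate 3, 1 without E5 replicate 1, 2 or 3 or E14 replicate 2, and 8 without E7 replicate 3. Lower calls over all probe sets moved as well, from 337 to 88, 78 and 214 without E10 replicate 1, E10 replicate 2 and E14 replicate 3. They were 235, 261 and 237 without E5 replicate 1, 2 and 3, 289 without E14 replicate 2 and 707 without E7 replicate 3.

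**Figure D2:**
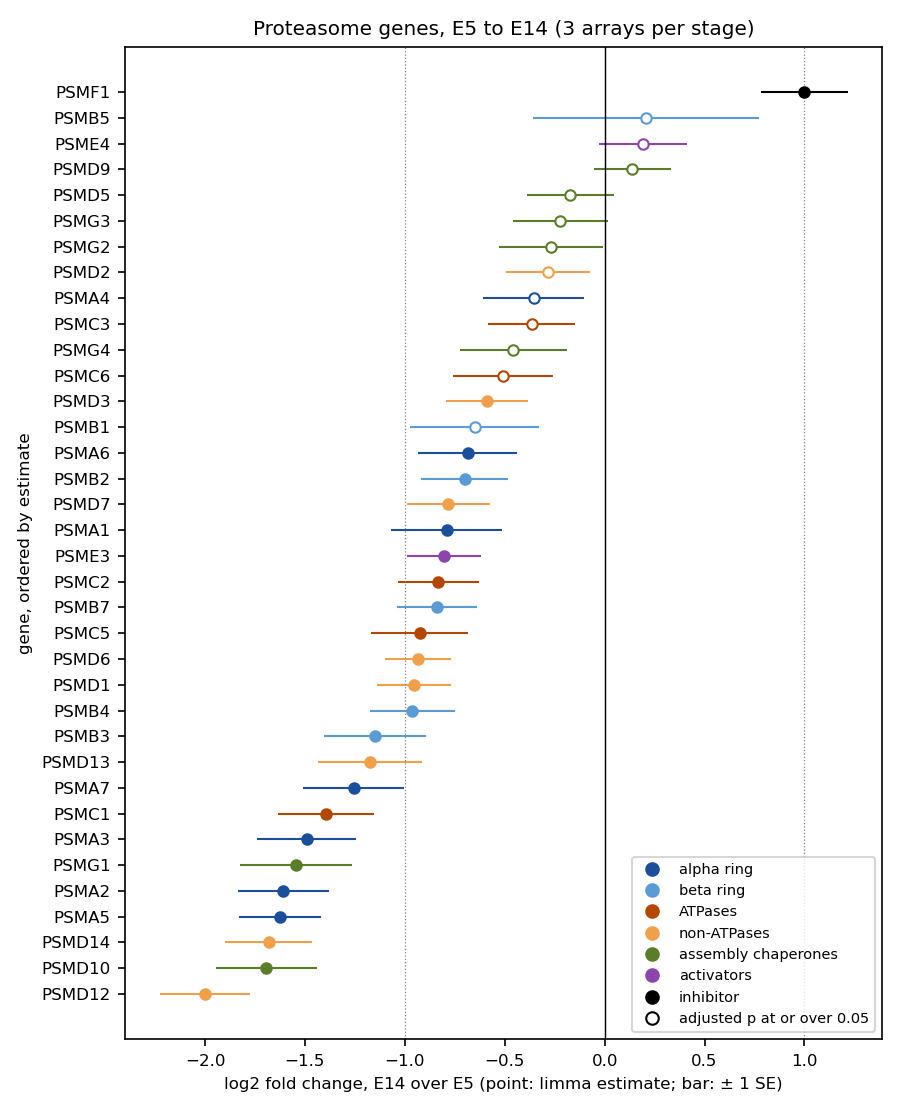
Log2 fold change from E5 to E14 of each of the 36 genes (x axis), ordered by estimate and coloured by class. Points are limma estimates from 3 arrays per stage, bars are 1 SE to each side, filled points passed an adjusted p of 0.05 and dotted lines mark a fold of 2. The estimates run from PSMD12 at -2.00 to PSMF1 at 1.00, and 32 of 36 lie below 0. The median over all tested probe sets was 0.03.

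In the alpha ring, which forms the gate of the core, 6 of 7 genes fell from E5 to E14 (median of the 7 genes -1.26), and in 6 the mean log2 signal was lower at each later stage. PSMA5 had signals of 1936, 2215 and 1846 in the 3 E5 arrays, of 1998, 1910 and 1291 at E7, of 1206, 1265 and 977 at E10 and of 769, 587 and 598.5 at E14. The stages E10 and E14 did not overlap with each other or with E5, and of the E7 arrays only replicate 3 left the range of E5. The log2 fold change of PSMA5 was -1.62 from E5 to E14 (SE 0.21, adjusted p = 4.05e-05) and -0.82 from E10 to E14 (SE 0.21, adjusted p = 0.043).

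PSMA2 had signals of 1419, 1239 and 1198 at E5, of 1154, 1002 and 699 at E7, of 866, 965 and 594 at E10 and of 452.5, 449.5 and 365 at E14. All E7 arrays were below all E5 arrays, E7 and E10 overlapped, and E14 lay apart below E10. The decline of PSMA2 was -1.61 from E5 to E14 (SE 0.23, adjusted p = 9.85e-05), of which -0.91 came after E10 (SE 0.23, adjusted p = 0.0414). Both E10 to E14 calls in the alpha ring were sensitive to processing, since PSMA2 kept its call in 9 and PSMA5 in 10 of 23 alternatives.

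PSMA4 showed the smallest range of the alpha ring. Its signals were 2125, 3393 and 2071 at E5, 2641, 3034 and 2422 at E7, 2238, 2412 and 1708 at E10 and 2362, 1354 and 2227 at E14. The E7 arrays lay above all E10 and all E14 arrays, the other stages overlapped, and the log2 fold change from E5 to E14 was -0.36 (SE 0.25, adjusted p = 0.277). The remaining alpha genes fell by between 0.69 (PSMA6, adjusted p = 0.0403) and 1.49 (PSMA3, adjusted p = 0.000321) on the log2 scale.

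In the beta ring, which holds the cutting sites, 4 of 6 genes fell from E5 to E14 (PSMB2, PSMB3, PSMB4 and PSMB7, median of the 6 genes -0.77). PSMB3, a structural subunit without a cutting site, had signals of 1524, 1861 and 1367 at E5, of 1847, 1628 and 900.2 at E7, of 1011, 1370 and 879 at E10 and of 767, 624 and 742 at E14. E5 and E7 overlapped, and E14 lay below every array of the earlier stages. The log2 fold change of PSMB3 from E5 to E14 was -1.15 (SE 0.26, adjusted p = 0.00286).

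Of the cutting subunits PSMB7 fell and PSMB5 did not pass the test, and the difference between them was not tested. PSMB7, which carries the trypsin-like site, went from 1801 ± 61.6 at E5 to 1679 ± 433 at E7, 1276 ± 168 at E10 and 1009 ± 80.3 at E14 (log2 fold change E5 to E14 -0.84, SE 0.20, adjusted p = 0.00457). PSMB5, which carries the chymotrypsin-like site, was read by a dim probe set, with 83.5, 128 and 93.4 at E5, 165, 174 and 22.4 at E7, 108, 117 and 104 at E10 and 139, 122 and 91.0 at E14. Apart from the low value of E7 replicate 3, the PSMB5 arrays of all stages lay between 83.5 and 174, and E5 and E14 did not differ beyond their spread (0.21, SE 0.57, adjusted p = 0.796). A dimmer probe set of PSMB5 gave 1.47 (SE 0.85, adjusted p = 0.185). It reached the limit of 35 in all 3 arrays only at E14, which favours a positive estimate. Its signals went down to 9.71 at E5 and 6.96 at E7. The third cutting subunit, PSMB6, was not among the members analysed here.

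The ATPases form the unfolding ring of the regulatory particle. PSMC1, PSMC2 and PSMC5 fell from E5 to E14, 3 of 5 genes (median of the 5 genes -0.83), and in all 5 the mean log2 signal was lower at each later stage. PSMC1, whose tail helps to open the alpha gate in yeast, had signals of 949.5, 1052 and 1154 at E5, of 714, 932 and 452 at E7, of 560, 715 and 489 at E10 and of 377, 392.5 and 427.5 at E14. All E7 arrays were below E5 and all E14 arrays below E10, with an overlap between E7 and E10. The change of PSMC1 was -1.40 from E5 to E14 (SE 0.24, adjusted p = 0.000445).

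PSMC3 had the smallest range of the ATPases, from 268 ± 19.6 at E5 to 208 ± 15.1 at E14 (-0.37, SE 0.22, adjusted p = 0.198). All 3 E14 arrays of PSMC3 were below all 3 E5 arrays without passing the test. A second, dimmer probe set of PSMC3 went from 106 ± 15.1 at E5 to 51.2 ± 22.6 at E7, 16.3 ± 12.1 at E10 and 42.7 ± 21.8 at E14. It gave -1.46 from E5 to E14 (SE 0.75, adjusted p = 0.132) and passed the test for any difference among the stages (adjusted p = 0.0208). This probe set reached the signal limit for testing in all 3 arrays only at E5, which favours negative estimates from E5. Its signals went down to 26.1 at E7, 2.51 at E10 and 18.6 at E14, so the call among the stages includes values below that limit. PSMC6 went from 1661 ± 163 to 1169 ± 146 (-0.51, SE 0.25, adjusted p = 0.12).

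The non-ATPases include the lid that removes ubiquitin and the scaffold that receives substrates. Of these 8 genes 7 fell from E5 to E14 (median -0.94), among them PSMD12, the gene with the largest fall of the 36. PSMD12, a structural lid subunit, had signals of 1172, 1326 and 1384 at E5, of 749, 961 and 508 at E7, of 533, 644 and 473 at E10 and of 355, 328 and 288 at E14. E7 lay wholly below E5 and E14 wholly below E10. The change of PSMD12 from E5 to E14 was -2.00 (SE 0.22, adjusted p = 1.58e-05), and neither E5 to E7 (-0.85, SE 0.22, adjusted p = 0.0784) nor E10 to E14 (-0.76, SE 0.22, adjusted p = 0.078) passed alone. E5 to E7 passed without E7 replicate 2 (-1.07, adjusted p = 0.0405), and E10 to E14 passed without E7 replicate 3 (adjusted p = 0.0257) and after quantile normalization (adjusted p = 0.031). Over the 23 alternatives the E5 to E7 estimate of PSMD12 lay between -1.07 and -0.61, with adjusted p up to 0.2. Its E10 to E14 estimate lay between -0.86 and -0.64, with adjusted p up to 0.267.

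PSMD14, the deubiquitinase of the lid that cuts ubiquitin from the substrate, had signals of 1421, 1254 and 1165 at E5, of 1033, 1116 and 641 at E7, of 688, 835 and 606 at E10 and of 400, 358 and 439 at E14. Again E7 lay below E5 and E14 below E10. The log2 fold change of PSMD14 was -1.68 from E5 to E14 (SE 0.22, adjusted p = 5.24e-05) and -0.82 from E10 to E14 (SE 0.22, adjusted p = 0.0547). PSMD7, the partner of PSMD14 in the lid, fell from 1663 ± 241 to 967 ± 130.0 (-0.78, adjusted p = 0.00837).

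PSMD6 is another lid subunit. Its signals were 1095, 1138 and 1192 at E5, 881, 970.3 and 848 at E7, 1009, 1212 and 957 at E10 and 640.5, 606 and 548 at E14. The E10 arrays overlapped with those of E5 and E7, and E14 was lower than all earlier arrays. PSMD6 fell from E10 to E14 (-0.82, SE 0.17, adjusted p = 0.0165) and over the whole course (-0.93, SE 0.17, adjusted p = 0.000575), and its E10 to E14 call was kept in 20 of 23 alternatives. PSMD2 and PSMD3 likewise had positive estimates from E7 to E10 (0.25 and 0.34) that did not pass the test (adjusted p = 0.524 and 0.36).

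PSMD2, a scaffold subunit that docks ubiquitin carriers, was the non-ATPase with the smallest range. It had signals of 412, 535 and 487 at E5, of 374, 418 and 480 at E7, of 622, 381 and 529 at E10 and of 367, 372 and 434 at E14. All stages overlapped, and the log2 fold change from E5 to E14 was -0.29 (SE 0.21, adjusted p = 0.297). A second probe set of PSMD2 fell from 254 ± 61.3 to 161 ± 13.8 (-0.63, SE 0.23, adjusted p = 0.0401). The ubiquitin receptor PSMD4 has no value here, since its probe sets are annotated together with PIP5K1A.

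**Figure D3:**
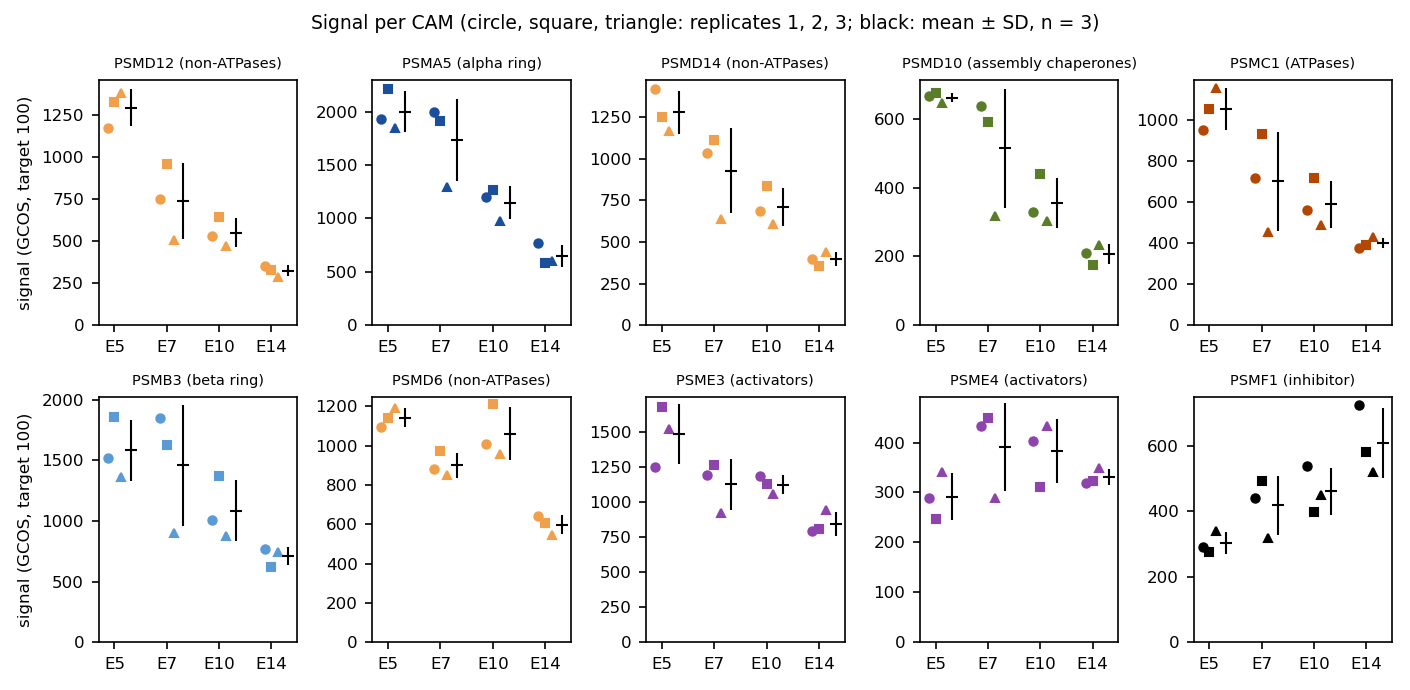
Signals of 10 proteasome genes in the 12 CAM arrays (y axis, signal scaled to a target of 100, starting at 0) by stage (x axis). Coloured symbols are single arrays and black bars the mean and SD of n = 3. PSMD12 declines from 1294 ± 109.6 at E5 to 324 ± 33.7 at E14, PSMD6 lies between 548 and 640.5 at E14 and at 848 or more before, PSME4 overlaps between all stages, and PSMF1 increases from 303 ± 33.5 to 609 ± 106.

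The assembly chaperones split into 2 that fell and 5 that did not pass the test. PSMD10 (gankyrin), which helps the ATPases to assemble, had signals of 667, 675 and 647 at E5, of 637, 591 and 318 at E7, of 329, 439.5 and 302.5 at E10 and of 209.7, 176 and 234 at E14. The 3 E5 arrays were tight and lay above all later arrays, and E14 lay below all others. The log2 fold change of PSMD10 from E5 to E14 was -1.69 (SE 0.25, adjusted p = 0.000153). PSMG1, which with PSMG2 builds the alpha ring, fell from 670.4 ± 91.4 to 229 ± 24.3 (-1.54, SE 0.28, adjusted p = 0.000651). Its partner PSMG2 was at 223 ± 53.2 and 182 ± 12.8 (-0.27, SE 0.26, adjusted p = 0.431).

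PSMG3 and PSMG4, which act together on the same ring, gave -0.22 (adjusted p = 0.478) and -0.46 (adjusted p = 0.193) from E5 to E14, and PSMD9 gave 0.14 (adjusted p = 0.595). PSMD5 had the smallest range of the chaperones. Its signals were 560.5, 309 and 396 at E5, 371, 469 and 344 at E7, 355, 376 and 343 at E10 and 369, 359 and 361 at E14, so that all later arrays but E7 replicate 2 lay between E5 replicates 2 and 3. The change of PSMD5 was -0.17 (SE 0.22, adjusted p = 0.555), whereas a second probe set of the gene fell from 280.1 ± 49.6 to 133 ± 18.3 (-1.06, SE 0.26, adjusted p = 0.00516). Whether PSMD5 is counted as a fall therefore depends on the probe set read.

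Of the activators PSME3 fell, and PSME4 did not pass the test. PSME3 (REG gamma), a nuclear cap that acts without ubiquitin, had signals of 1254, 1679 and 1525 at E5, of 1196, 1266 and 919.7 at E7, of 1190, 1129 and 1056 at E10 and of 791, 805 and 945 at E14. The 3 E14 arrays lay below all arrays of E5 and E10. PSME3 fell from E5 to E14 (log2 fold change -0.81, SE 0.19, adjusted p = 0.00339), and a second probe set gave -2.02 (SE 0.40, adjusted p = 0.00114).

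PSME4 (PA200), a cap linked to histone turnover, had signals of 288, 246 and 342 at E5, of 433, 449 and 289 at E7, of 403, 311 and 434 at E10 and of 319.5, 323 and 349 at E14. No stage of PSME4 stood apart from another, and the change from E5 to E14 was 0.19 (SE 0.22, adjusted p = 0.513). Its other 2 tested probe sets, at signals up to 136, gave -0.66 (SE 0.27, adjusted p = 0.0613) and -0.51 (SE 0.45, adjusted p = 0.392). The direction of PSME4 was therefore not settled between its probe sets.

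PSMF1 (PI31), the inhibitor, was the only gene of the 36 that rose. It had signals of 290, 277 and 340.5 at E5, of 442, 494 and 319 at E7, of 539.6, 397 and 449 at E10 and of 726, 581 and 519.5 at E14. Every array of E10 and E14 lay above every array of E5, while E7 replicate 3 was within the range of E5 and neighbouring stages from E7 on overlapped. PSMF1 rose from E5 to E14 (log2 fold change 1.00, SE 0.22, adjusted p = 0.00225), at the limit of a fold of 2, with no single step passing the test (0.45, 0.16 and 0.40, adjusted p = 0.299, 0.716 and 0.328).

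**Figure D4:**
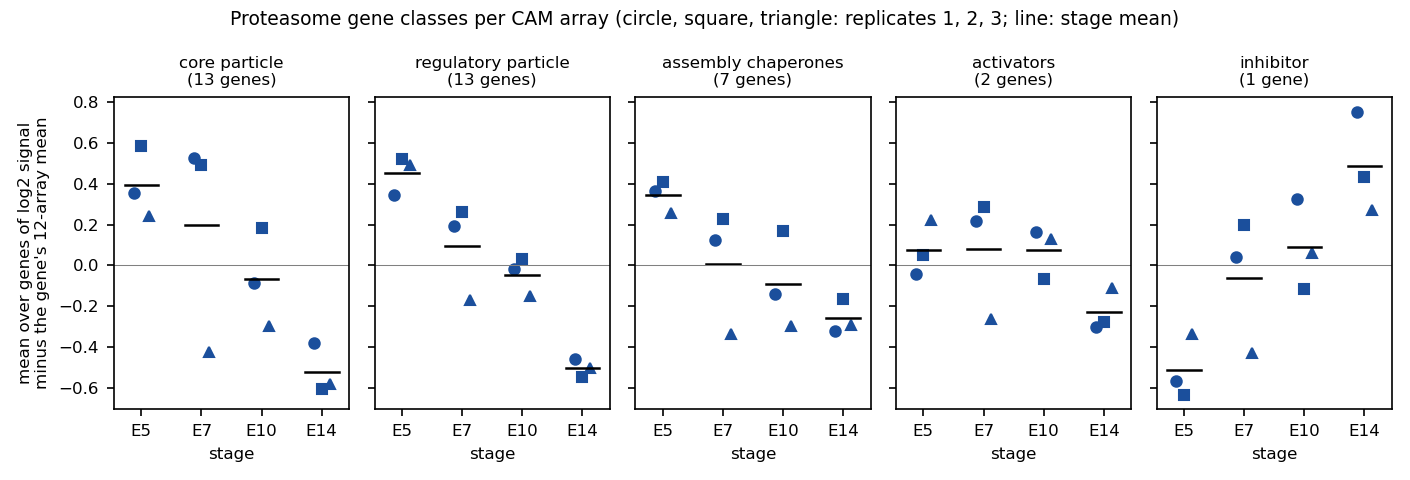
Class level per CAM array (y axis, mean over the genes of a class of the log2 signal minus the gene's mean over 12 arrays) by stage (x axis). Circles, squares and triangles are replicates 1, 2 and 3 and lines are stage means. Core and regulatory particle go from 0.39 and 0.45 at E5 to -0.52 and -0.50 at E14, and the inhibitor PSMF1 goes from -0.51 to 0.49.

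The difference between core and regulatory particle overlapped between E5, E10 and E14, whereas the E7 arrays lay on both sides of these. The level of a class was taken in each array as the mean over its genes of the log2 signal minus the gene's own mean over the 12 arrays, so that the difference between classes within an array does not depend on how the array was scaled. The core level was 0.39 ± 0.18 at E5, 0.20 ± 0.54 at E7, -0.07 ± 0.24 at E10 and -0.52 ± 0.12 at E14, and that of the regulatory particle was 0.45 ± 0.10, 0.09 ± 0.23, -0.05 ± 0.09 and -0.50 ± 0.04 (n = 3). The core minus regulatory difference lay between -0.25 and 0.06 in the E5 arrays, -0.15 and 0.16 at E10 and -0.08 and 0.08 at E14. At E7 the difference was 0.33 and 0.23 in replicates 1 and 2, above every array of the other stages. In E7 replicate 3 it was -0.26, below every array of the other stages. By gene, the median change of the core was -0.18 from E5 to E7 and -0.36 from E7 to E10, and that of the regulatory particle was -0.35 and -0.21. Without E7 replicate 3 these medians were 0.11 and -0.63 for the core and -0.25 and -0.40 for the regulatory particle. In contrast, core minus PSMF1 was between 0.58 and 1.22 at E5 and between -1.14 and -0.85 at E14, without overlap. The assembly chaperones went from 0.34 ± 0.08 to -0.26 ± 0.08 and the activators from 0.08 ± 0.13 to -0.23 ± 0.11.

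E7 replicate 3 stood apart from the other E7 arrays. Its median signal was 48.6, whereas the other 11 arrays had medians between 24.4 and 33.6, and its mean level over the 36 genes was -0.31 beside 0.30 and 0.34 in E7 replicates 1 and 2. The 3' to 5' ratio of its actin control was 2.76, beside 1.19 and 1.66 in the other 2 E7 arrays. That of its GAPDH control was 1.01, beside 0.931 and 0.926, and the E10 arrays had 1.01 to 1.1. The part of RNA quality in the low level of E7 replicate 3 was not tested. Without this array the median change of the 36 genes was -0.06 from E5 to E7 and -0.42 from E7 to E10, in place of -0.23 and -0.21, and 3 genes fell from E7 to E10 in place of 0. Over all probe sets 319 were then lower from E7 to E10, in place of 156. The E5 to E14 estimates do not use the E7 arrays.

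Of the 24 genes called from E5 to E14, 20 kept their call in all 23 alternatives of processing and left-out arrays. PSMA1 (-0.79, adjusted p = 0.0366), PSMA6, PSMB2 (-0.70, adjusted p = 0.0195) and PSMD3 (-0.59, adjusted p = 0.0343) lost it in some, with adjusted p up to 0.132, 0.139, 0.075 and 0.151. PSMA1 lost its call when any 1 of the E5 arrays or E14 replicate 1 or 3 was left out, and PSMA6 without E5 replicate 1 or 2, E10 replicate 1 or any 1 of the E14 arrays. PSMB2 lost it without E5 replicate 1 or 2 or E14 replicate 2, and PSMD3 without E5 replicate 2 or 3 or any 1 of the E14 arrays. PSMA1, PSMA6 and PSMD3 also lost it without a filter on low signals, with eBayes without trend and with HINTW, a W chromosome gene, as a covariate. All 4 kept a negative estimate throughout. Counted by probe sets rather than genes, 26 of the 45 tested proteasome probe sets were called lower (57.8%), beside 19.3% of all tested probe sets.

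PSMC3IP, the recombination factor, had signals of 189.7, 160 and 202.5 at E5, of 172, 183 and 89.0 at E7, of 108, 116 and 99.0 at E10 and of 43.9, 54.2 and 59.4 at E14. E14 was below every earlier array. Its log2 fold change from E5 to E14 was -1.81 (SE 0.29, adjusted p = 0.000237).

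Other genes of the pathway did not share a single direction. The lists covered ubiquitin supply, ubiquitin receptors and deubiquitinases, assembly, p97 unfoldase, transcriptional control, COP9 signalosome and antigen processing. They held 64 symbols, under which 45 genes were tested. Some symbols are second names of a listed gene, such as SEM1 for SHFM1, and PI31 is PSMF1, so fewer than 64 genes were listed. From E5 to E14 11 of the 45 rose and 12 fell (median -0.08), beside 19.5% and 19.3% of all tested probe sets. The E5 to E14 counts of single lists below are to be read beside the same shares. The COP9 signalosome, which is built like the proteasome lid and removes NEDD8 from cullins, came nearest to the proteasome, with 5 of 8 genes lower and a median of -0.78. COPS8 fell from 584 ± 90.5 to 213 ± 44.0 (-1.46, SE 0.22, adjusted p = 0.000184). In the step from E5 to E7 only UCHL5 was called among these 45 genes, as lower, beside 0.282% of all probe sets. From E7 to E10 only TAPBP and AKIRIN2, a nuclear import factor of the proteasome (0.87, SE 0.23, adjusted p = 0.044), were called. Both were higher, beside 3.33% of all probe sets.

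Of the receptors, deubiquitinases and shuttles that dock at the proteasome 4 of 11 fell, namely UCHL5, TXNL1, ADRM1 and USP14. UCHL5, a deubiquitinase of the regulatory particle, fell from 929 ± 73.8 to 347 ± 58.9 (-1.43, SE 0.21, adjusted p = 0.000119) and already from E5 to E7 (-0.95, SE 0.21, adjusted p = 0.0357). TXNL1, a thioredoxin-like protein that binds the regulatory particle, fell from 2365 ± 755 to 907 ± 147.5 (-1.34, SE 0.29, adjusted p = 0.00226). In the assembly list POMP, the maturation factor of the core, was the only 1 of 5 genes that fell (-1.18, SE 0.21, adjusted p = 0.000593).

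The list of transcriptional control had 3 of 6 genes higher at E14, NFE2L1, NFE2L2 and MAFK, and 0 lower. NFE2L1, known in mammals as the factor that drives proteasome genes when the proteasome is blocked, rose from 614 ± 107 to 1247 ± 179 (1.03, SE 0.20, adjusted p = 0.00111), opposite in direction to the subunit genes. The p97 list had 1 gene higher (NPLOC4) and 2 lower (VCP and FAF1) of 7, and of the 2 tested genes of ubiquitin supply RPS27A rose.

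Antigen processing, which uses the peptides made by the proteasome, had 6 of 6 tested genes higher at E14 (median 2.84), out of 9 listed. Signals in this list went down to 4.34, below the limit of 35. Genes that were dim at E5 could be tested only through a brighter later stage, which favours rises among the tested genes. TAPBP (tapasin), which loads peptides onto MHC class I, rose from 33.7 ± 14.5 to 585 ± 119 (4.22, SE 0.35, adjusted p = 1.41e-06). The transcription factor IRF1 rose from 12.9 ± 7.80 to 148 ± 32.6 (3.75, SE 0.56, adjusted p = 0.000142). BF2, an MHC class I gene, rose from 34.9 ± 15.4 to 278 ± 55.7 (3.07, SE 0.35, adjusted p = 1.77e-05). BF2 and B2M rose from E10 to E14 (2.34 and 1.36, adjusted p = 0.00251 and 0.0196), beside 1.35% of all probe sets. TAPBP rose from E7 to E10 (1.76, adjusted p = 0.0115), beside 3.33% of all probe sets.

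Markers of cell types and of division moved over the same days. All 11 tested proliferation genes fell from E5 to E14 (median -1.84), out of 14 listed symbols, of which CDK1 and CDC2 name the same gene. Their summed signal was 12460 to 15470 at E5, 8528 to 13230 at E7, 6659 to 8094 at E10 and 3668 to 4406 at E14. Leukocyte markers rose in 8 of 9 tested genes (13 listed), with sums of 338.1 to 479.5 at E5 and 4204 to 6030 at E14. Epithelial markers rose in 7 of 8 (15 listed), with sums of 6765 to 10390 and 20870 to 24390. Endothelial markers rose in 9 of 12 (13 listed), with sums of 2963 to 4399 and 7026 to 9765. Fibroblast and mural markers rose in 8 of 11 (13 listed), and interferon genes in 3 of 4 (9 listed). Erythroid markers rose in 5 and fell in 1 of 8 (15 listed). Signals went down to 2.95 in the leukocyte list, 4.34 in the interferon list and 14.7 in the erythroid list. They went down to 15.3, 17.2 and 30.3 in the fibroblast and mural, endothelial and epithelial lists. These minima lie below the signal limit used for testing, whereas the lowest proliferation signal was 35.1. Markers that were dim at E5 could be tested only through a brighter later stage, which favours rises among the tested markers. Whether these markers were expressed at every stage was not tested. Their part in the proteasome result was not tested.

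RNA quality and sex also differed between arrays. The ratio of 3' to 5' signal of the actin control was 1.26 to 1.5 at E5, 1.19 to 2.76 at E7, 1.51 to 1.66 at E10 and 2.21 to 3.43 at E14. The ratios of GAPDH were 0.921 to 0.981 at E5, 0.926 to 1.01 at E7, 1.01 to 1.1 at E10 and 1.19 to 1.3 at E14. Their part in the lower signals at E14 was not tested. HINTW, a gene of the female W chromosome, had signals of 3830 to 5386 in all E10 arrays, while each other stage held arrays of low and of high signal. With HINTW as a covariate 1 gene in place of 3 fell from E10 to E14, and 207 probe sets in place of 337 over all.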

How the data were processed

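Total RNA of 12 single CAMs (4 stages, 3 embryos each) was hybridised to Affymetrix chicken GeneChips. The deposited values are intensity signals that the authors computed with GCOS 1.2 and scaled globally to a target of 100, without logarithm or detection calls. The authors filtered by present calls, which were not used here, and tested stages with SAM. The Wilcoxon form of that test cannot go below an exact two-sided p of 0.1 with 3 against 3 arrays, so limma 3.58.1 in R 4.3.3 was used instead.

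Control probe sets (96) were left out, and probe sets whose lowest signal within a stage reached 35 at the best stage were kept (17726 of 38439). Signals were taken to log2 and fitted in 1 model of 12 arrays with a mean per stage and a trended eBayes (8 residual degrees of freedom), with Benjamini-Hochberg adjustment over all tested probe sets. The number of arrays limits the precision. The code was tested on simulated data. Plots used matplotlib 3.10.9 in Python 3.11.15.

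Probe sets were named through the platform annotation, in which 27168 carry 1 symbol, 177 several and 11094 none. Those with several symbols, 6 of which hold a proteasome symbol, were not named. Of the 46 tested member probe sets 25 have a suffix that marks probes shared between transcripts or genes, so that signals of close relatives may be mixed. The files name no genome build, so that no positions are given. Genes shown singly are up to 4 with the largest change per comparison and direction, the widest and narrowest range of each class, the cutting subunits, PSMD14, the PSME genes and PSMF1, and up to 3 of the other pathway genes per direction. Other genes named beside them were chosen after their values were seen. The members and lists were chosen with earlier results of these data known. Alternatives changed the filter, low signals, scaling, moderation, arrays, covariate, block and representative probe set. Replicate numbers do not pair the arrays.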

Additional observations from a re-analysis of the deposited data

How the results depend on the processing

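No called change reversed under the 23 alternatives run, and the E5 to E14 counts stayed between 19 and 25 lower and at 1 higher. Over all probe sets, lower calls from E5 to E14 ran from 2598 without E5 replicate 1 to 3973 without E7 replicate 3. Higher calls ran from 2745 to 4026 in the same 2 settings. The count of genes lower from E10 to E14, 3 as reported, was 1 without a filter on low signals, with equal medians, with eBayes without trend, with only the 6 arrays compared and with HINTW as a covariate, 7 after quantile normalization and 0 to 8 when single arrays were left out. Lower calls over all probe sets, 337 as reported, were 239, 201, 184, 200 and 207 in the settings with 1 gene, in that order, and 509 after quantile normalization. The count of lower proteasome genes from E7 to E10 was 1 after quantile normalization and 0 to 3 with an array left out, and from E5 to E7 0 to 1 with an array left out. With the least variable probe set per gene the median of the activators was -0.27 from E5 to E7 and -0.73 from E5 to E14, in place of 0.00 and -0.31, because another probe set of PSME4 was then read. Leaving out single arrays moved the median of the core particle between -0.37 and 0.11 from E5 to E7, which turned its sign without E7 replicate 3, and between -0.63 and -0.19 from E7 to E10. It moved that of the assembly chaperones from E5 to E7 between -0.43 and -0.053 and that of the regulatory particle from E7 to E10 between -0.40 and -0.095. The median of the 36 genes from E5 to E14 was -0.88 with equal medians and -0.70 after quantile normalization, in place of -0.80.

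Over all probe sets quantile normalization gave 512 higher and 299 lower from E7 to E10 in place of 591 and 156, and equal medians gave 226 higher and 201 lower from E10 to E14 in place of 240 and 337. Arrays with the same replicate number did not deviate together (correlation of deviations from the stage means -0.14 to 0.07 over 18 pairs, -0.15 to 0.15 over 36 pairs of different numbers). With a replicate block 3383 probe sets were higher and 3335 lower from E5 to E14, in place of 3461 and 3419, and the block moved no count of proteasome genes by over 1.5 times. Dim probe sets, such as those of PSMB5, limit what can be said of single subunits.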
